A study of Arabidopsis thaliana with 28 samples.

Results

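The VANDAL families are a group of MuDR-type DNA transposons, and 4 of them (VANDAL20, VANDAL21, VANDAL1 and VANDAL12) stand among the 83 named families in the authors' table of transposable element expression. They were chosen by name, as every family whose name starts with VANDAL, and 7 further families of the table belong to the same MuDR superfamily. RNA was taken from shoots (aerial parts) of Arabidopsis thaliana plants at 6 days. There were 3 wild-type Col-0 libraries and 3 libraries of caa39, a mutant line of topoisomerase VI, which passes DNA strands through each other. Both groups were grown alike and differ by genotype only as far as the labels say, and caa39 is 1 line, so the mutation and other differences of that line cannot be told apart. The table lists element families and no genes, so markers of the tissue and the transcript of topoisomerase VI were not examined here.

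Mutator-like elements move by a cut-and-paste mechanism in which a transposase excises the element and inserts it elsewhere. VANDAL elements are a lineage of this group described in Arabidopsis, and many of them lack the long terminal inverted repeats that are typical of Mutator elements. Plants keep such copies silent through DNA methylation and through methylation of histone H3, and loss of these marks is known to let some families be transcribed and move. The VANDAL21 copy called Hiun encodes VANC, a protein that leads to loss of DNA methylation at copies of its own family.

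The deposited table holds the authors' mean for each genotype, in normalised reads, which are read counts divided by a size factor of the library. The reads of the single libraries were solved from these means, because each mean is a sum of whole reads times 1 constant per library. Libraries are lettered a to c within each genotype by falling size factor, and the letters are not replicate numbers. Listed reads per solved library, unassigned elements included, ran from 22924 to 26678 for the wild type and from 20791 to 31566 for caa39. Families sum copies from across the genome, so no coordinates belong to the values, and no sequence of a family was used here.

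The main comparison asked how each VANDAL family differed between caa39 and the wild type. VANDAL20, VANDAL21 and VANDAL1 rose in caa39 and VANDAL12 fell, all with an adjusted p below 0.05 in the authors' deposited table. That table lists only families that passed, so 100% of the 83 listed families are called, 48.2% of them higher and 51.8% lower in caa39, and the VANDAL split of 3 to 1 is read against those shares. The sizes were unequal: 7.87-fold for VANDAL20, 6.73-fold for VANDAL21, 1.62-fold for VANDAL1 and 0.679-fold for VANDAL12 in the authors' deposited table. At least 2-fold changes upward were listed for 2 of the 4 (36.1% of the 83 families) and downward for 0 of the 4 (25.3% of the 83). More RNA per copy, more active copies and more cells with active copies cannot be told apart in whole aerial parts. The same holds for less.

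VANDAL20 held 122, 102 and 92 reads in the wild-type libraries (a to c), and 1215, 1183 and 874 in those of caa39. In normalised reads these were 129, 117 and 112 against 889.7, 978 and 956. All caa39 libraries lay far above all wild-type ones, the lowest of them at 6.88 times the highest wild-type library. The means were 119.5 ± 8.92 and 941 ± 46.1 normalised reads (SD, n = 3 each). In the authors' deposited table its adjusted p, 1.04e-127, is the smallest of the 83, and its fold has rank 6 from the highest. Families above it in fold had far fewer reads, as the plot of all listed families shows, while VANDAL20 stands at rank 9 in mean normalised reads. The limma log2 fold change on the solved libraries was 2.97 ± 0.10 (SE), with an adjusted p of 1.06e-05 over the 83 families. Its share of all listed reads, which is taken on the solved reads before division by size factors, went from 0.421 ± 0.0319% to 4.10 ± 0.219% (SD, n = 3 each).

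**Figure D1:**
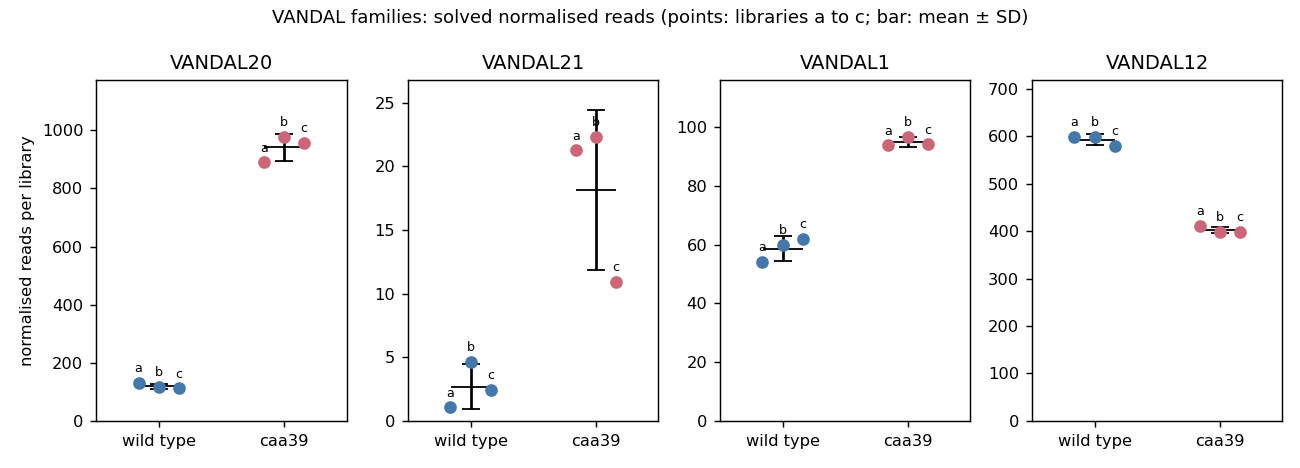
Normalised reads (vertical axes, starting at 0) of the 4 VANDAL families in the solved libraries a to c of the wild type and caa39, with the mean and SD of each genotype as bars. The groups do not overlap in any panel, as in 98.8% of the listed families. VANDAL20 goes from 112 to 129 in the wild type to 889.7 to 978 in caa39, and VANDAL12 is the only one that goes down.

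VANDAL21, the family of Hiun, was near silence in the wild type. It had 1, 4 and 2 reads in the wild type (libraries a to c) and 29, 27 and 10 in caa39. Normalised reads were 1.06, 4.61 and 2.43 against 21.2, 22.3 and 10.9. The groups did not overlap, although caa39 library c was well below the other two caa39 libraries. Means were 2.70 ± 1.79 and 18.2 ± 6.28 normalised reads (SD, n = 3 each). The authors' deposited table gives an adjusted p of 0.000698, and limma gave a log2 fold change of 2.64 ± 0.51 (SE; adjusted p = 0.00358). Because a pseudocount of 0.5 was added, this log2 value understates the change of so small a count. With a pseudocount of 5 it was 1.57 (limma adjusted p = 0.0013). Pooled over libraries, 7 reads against 66 gave a ratio of 7.12 with an exact 95% interval of 3.27 to 18.4, which covers counting error only. Wild-type library b holds most of the wild-type reads, and without it the ratio of means was 10.4 in place of 6.73. These wild-type reads, and the pooled interval, hold for the set of wild-type size factors taken. With a second possible set the wild-type SD was 2.34 normalised reads and the lowest wild-type library stood at 0. The limma log2 fold change was then 3.03 ± 0.83 (SE; adjusted p = 0.0115).

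VANDAL1 showed a small rise. It had 51, 52 and 51 reads in the wild type (libraries a to c) against 128, 117 and 86 for caa39. After normalisation the wild-type libraries stood at 54.1, 59.9 and 62.0, and those of caa39 at 93.7, 96.7 and 94.1. Each caa39 library was above each wild-type library, by a factor of at least 1.51. The means were 58.6 ± 4.11 and 94.9 ± 1.65 normalised reads (SD, n = 3 each). The authors' deposited table gives an adjusted p of 0.0138, rank 65 of the 83, and limma gave a log2 fold change of 0.69 ± 0.09 (SE; adjusted p = 0.000932). The SDs were 0.502 (wild type) and 0.180 (caa39) times the SD that counting error alone gives, so so small a spread is no measure of precision. With the second possible set of wild-type size factors limma gave 0.70 ± 0.19 (SE; adjusted p = 0.0116).

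VANDAL12 was the VANDAL family with the most reads in the wild type and the only one of the 4 that fell. It had 565, 520 and 476 reads in the wild type (libraries a to c) against 560, 481 and 364 for caa39. The raw reads overlap, and their sums were 1561 in the wild type and 1405 in caa39. Divided by the size factors, the wild-type libraries stood at 599, 599 and 579 normalised reads and those of caa39 at 410.1, 398 and 398. On that scale the groups stood apart, the highest caa39 library being at 0.709 of the lowest wild-type one. The means were 592 ± 11.7 and 402 ± 6.96 normalised reads (SD, n = 3 each). The authors' deposited table gives it an adjusted p of 8.26e-06. The limma log2 fold change was −0.56 ± 0.08 (SE; adjusted p = 0.00106).

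In limma all 4 VANDAL families passed an adjusted p of 0.05, as did 97.6% of the 83 listed families. The solved libraries of the genotypes did not overlap in any of the 4, as in 98.8% of the listed families. Both shares are high by construction, since a family is listed only if it passed a test on these libraries. Neither count therefore sets the VANDAL families apart from the list.

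How the libraries are scaled bears on VANDAL12. Relative to listed reads the solved size factors are larger in caa39, so scaling each library to its listed reads raised limma log2 fold changes by a median of 0.31 over the 83 families. Scaling by the median of ratios over the listed families raised them by 0.41. VANDAL12 then stood at −0.25 (limma adjusted p = 0.0226) and at −0.14 (limma adjusted p = 0.238), so the fall was no longer called on the last scale. Its share of all listed reads was 2.12, 2.05 and 2.08% in the wild-type libraries (a to c) and 1.77, 1.73 and 1.75% in those of caa39, without overlap. Both scales moved log2 fold changes upward, so they could not take a rise away and do not test the 3 families that rose. On these scales the log2 fold change was 3.28 and 3.39 for VANDAL20, 2.92 and 3.00 for VANDAL21, and 1.00 and 1.10 for VANDAL1. The log2 fold change of VANDAL12 was negative on all 3 scales, and its size and call differed between them. Both alternative scales were made from the listed entries alone (unassigned elements included in listed reads), while the authors' p-values imply 23918 tests.

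**Figure D2:**
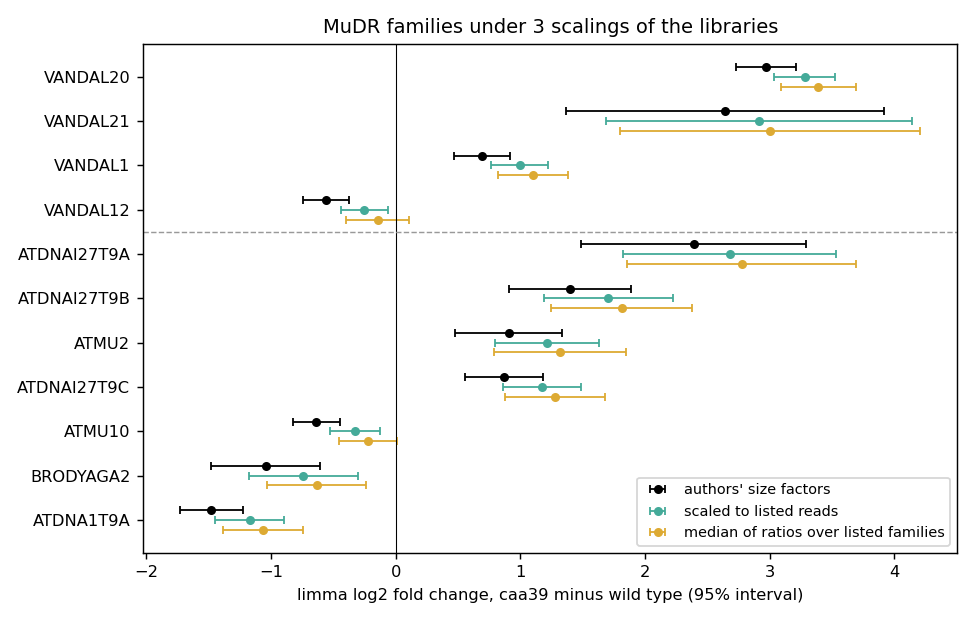
The limma log2 fold change with its 95% interval (horizontal axis) for the 4 VANDAL families, above the dashed line, and the other 7 MuDR families under 3 scalings of the libraries. VANDAL20 stays between 2.97 and 3.39, while the interval of VANDAL12 reaches past 0 under the median of ratios.

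The make-up of the VANDAL reads differed between the genotypes. VANDAL12 supplied 76.6 ± 0.128% of the wild-type VANDAL reads and 27.6 ± 1.23% of those in caa39 (SD, n = 3 each). VANDAL20 went the other way. It supplied 16.5, 15.0 and 14.8% in the wild-type libraries (a to c) and 62.9, 65.4 and 65.5% in those of caa39. From wild type to caa39, VANDAL1 went from 7.59 ± 0.659% to 6.51 ± 0.0968%, and VANDAL21 from 0.349 ± 0.229% to 1.25 ± 0.432% (SD, n = 3 each). These shares are taken within a solved library, so the scaling of libraries cancels. The solved wild-type reads themselves rest on the set of size factors taken, chosen among 10 for the smallest spread. The wild-type shares and their SDs were not recomputed under another set.

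**Figure D3:**
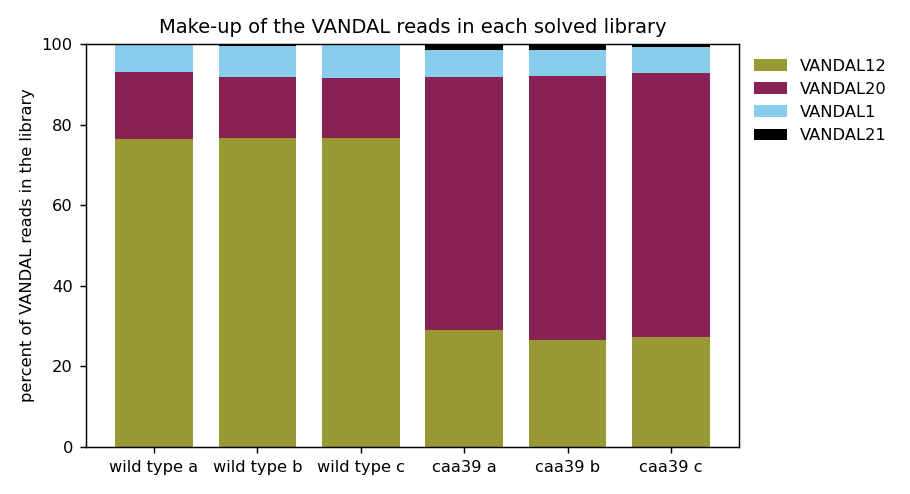
Percent of the VANDAL reads of each solved library (stacked bars, adding to the whole of the 4 families) that came from each family. VANDAL12 makes up the larger part in all wild-type libraries and VANDAL20, between 62.9 and 65.5%, in all caa39 libraries.

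The summed VANDAL families held 783, 781 and 755 normalised reads in the wild-type libraries (a to c) and 1415, 1495 and 1459.6 in those of caa39. The mean went from 773 ± 15.8 to 1456 ± 40.3 (SD, n = 3 each), a ratio of 1.88. VANDAL20 added 822 normalised reads, VANDAL1 36.2 and VANDAL21 15.5, while VANDAL12 fell by 190.1. Without VANDAL20 the sum went down, from 653 ± 10.3 to 515 ± 11.0 normalised reads (SD, n = 3 each), a ratio of 0.788. That lower sum was at 0.976 of the wild type when scaled to listed reads, and at 1.05, with overlapping libraries, under the median of ratios. As a share of all listed reads the 4 families went from 2.72 ± 0.0467% to 6.34 ± 0.197% (SD, n = 3 each).

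A further comparison asked whether the families differed from each other in their response. For each of the 6 pairs the log2 ratio of both families was taken within each library and compared between genotypes. The size factors thus cancel apart from the pseudocount of 0.5. The solved wild-type reads still rest on the set of size factors taken, and no other set was tried for these ratios. Relative to VANDAL12, VANDAL20 went from a log2 ratio of −2.31 ± 0.0864 to 1.23 ± 0.0959 (SD, n = 3 each), a difference of 3.53. In plain ratios there were 0.216, 0.196 and 0.193 VANDAL20 normalised reads per VANDAL12 normalised read in the wild-type libraries (a to c), and 2.17, 2.46 and 2.40 in those of caa39. VANDAL20 was thus below VANDAL12 in all wild-type libraries and above it in all caa39 libraries.

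The other differences in log2 fold change were 3.20 for VANDAL21 minus VANDAL12, 2.28 for VANDAL20 minus VANDAL1, 1.95 for VANDAL21 minus VANDAL1 and 1.25 for VANDAL1 minus VANDAL12. In these 5 pairs the libraries of the genotypes did not overlap, and the two-sided exact permutation p was 0.1, the smallest that 3 against 3 libraries allow, or 0.12 adjusted over the 6 pairs. No pair could pass 0.05 in this design. VANDAL20 and VANDAL21 differed by 0.33, with overlapping libraries (exact permutation p = 0.5, adjusted p = 0.5). Their log2 ratio went from 5.39 ± 0.931 to 5.72 ± 0.576 (SD, n = 3 each). The sign of that difference turned without wild-type library b, to −0.10, and without caa39 library c, to −0.00056. The difference also moved with the pseudocount. It was 0.12 with a pseudocount of 0.1 (exact permutation p adjusted over the 6 pairs = 1) and 1.35, without overlap, with a pseudocount of 5 (adjusted exact permutation p = 0.1). A pseudocount of 5 also brought VANDAL21 minus VANDAL1 to 0.92, and VANDAL21 minus VANDAL12 to 2.13. The order of VANDAL20 and VANDAL21 in response therefore depends on the pseudocount and on single libraries.

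The spread between the solved libraries is given as a description, because the wild-type size factors were chosen, among 10 possible sets, for the smallest spread. The coefficients of variation in wild type and caa39 were 7.46% and 4.90% for VANDAL20, 7.01% and 1.74% for VANDAL1, and 1.98% and 1.73% for VANDAL12. For VANDAL21 it was 66.3% and 34.6%. With the second set of wild-type size factors the wild-type SD of VANDAL12 was 83.6 in place of 11.7 normalised reads. That of VANDAL1 was 10.4 in place of 4.11, that of VANDAL20 16.2 in place of 8.92, and that of VANDAL21 2.34 in place of 1.79. Set against the SD that counting error alone gives at these reads, the SDs ran from 0.180 times, for VANDAL1 in caa39, to 1.60 times, for VANDAL21 in caa39. Exact 95% counting intervals of the pooled ratio were 6.96 to 8.80 for VANDAL20, 1.34 to 1.98 for VANDAL1 and 0.632 to 0.731 for VANDAL12.

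The families closest to the VANDAL families by superfamily are the other 7 MuDR families. Of these 4 rose and 3 fell in the authors' deposited table, against 3 and 1 of the VANDAL families. The median log2 fold change was 1.72 over the VANDAL families, 0.88 over the other MuDR families and −0.35 over all 83 named families in the authors' deposited table. With 4 and 7 families these medians only describe the lists. ATDNAI27T9A rose 5.37-fold, ATDNAI27T9B 2.69-fold, ATMU2 1.88-fold and ATDNAI27T9C 1.84-fold in the authors' deposited table. ATMU10 stood at 0.644 of the wild type, BRODYAGA2 at 0.477 and ATDNA1T9A at 0.359 in the authors' deposited table. All 7 passed in limma, with adjusted p-values from 0.000149 for ATDNA1T9A to 0.00346 for ATMU2. So did 97.6% of the 83 listed families, which were listed for passing a test on the same libraries. ATMU10 was no longer called under the median of ratios (log2 fold change −0.22, limma adjusted p = 0.0768).

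The other MuDR families together went from 1422 ± 26.9 to 1069.9 ± 46.1 normalised reads (SD, n = 3 each), a ratio of 0.752. On the solved size factors the VANDAL sum went the opposite way only through VANDAL20, since without it that sum fell too, at a ratio of 0.788. Without VANDAL20 that sum stood at 0.976 when scaled to listed reads, and at 1.05, with overlapping libraries, under the median of ratios. On the scale of listed reads the sum of the other MuDR families stood at 0.931 of the wild type with overlapping libraries, and under the median of ratios at 1.01. The VANDAL share of all MuDR reads went from 35.2 ± 0.715% to 57.7 ± 1.11% (SD, n = 3 each). VANDAL20 alone went from 5.44 ± 0.349% to 37.3 ± 1.09% of them (SD, n = 3 each).

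**Figure D4:**
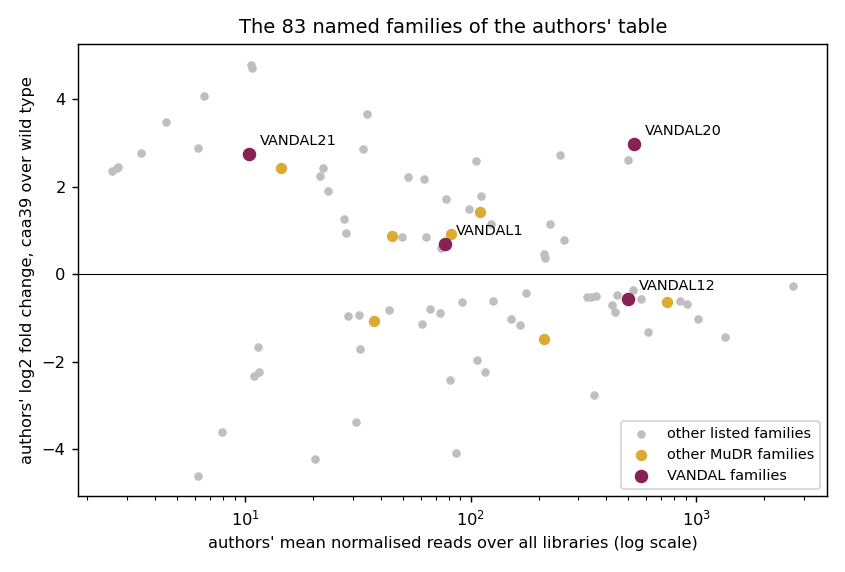
The authors' log2 fold change (vertical axis) against the authors' mean normalised reads (horizontal axis, log scale) for the 83 named families, with VANDAL and other MuDR families coloured. VANDAL20 has both a large fold and many reads, VANDAL21 a large fold on few reads, and VANDAL12 lies beside ATMU10 among the abundant families that were lower in caa39.

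Listed families were also ranked by how closely their profile over the 6 libraries followed each VANDAL family, by the root mean square difference of centred log2 values. The closest to VANDAL20 were the En-Spm family ATENSPM11 and the Copia family ATRE1, both at 0.22, and the Gypsy family ATHILA6A at 0.31. ATENSPM11 went from 139 to 853 normalised reads and ATRE1 from 65.5 to 435. VANDAL21 was followed most closely by ATENSPM9 at 0.33, ATHILA6A at 0.42 and ATHILA2 at 0.44. For VANDAL1 the nearest were ATCOPIA75 at 0.11, the Helitron family HELITRONY3 at 0.13 and the Gypsy family ATLANTYS3 at 0.14. For VANDAL12 they were ATMU10 at 0.06, the Gypsy family ATLANTYS1 at 0.07 and the LINE family ATLINE1_6 at 0.07. Of these 11 families only ATMU10 is a MuDR family. The measure mostly reads the genotype difference that all listed families show, and it is a description over 6 libraries.

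**Figure D5:**
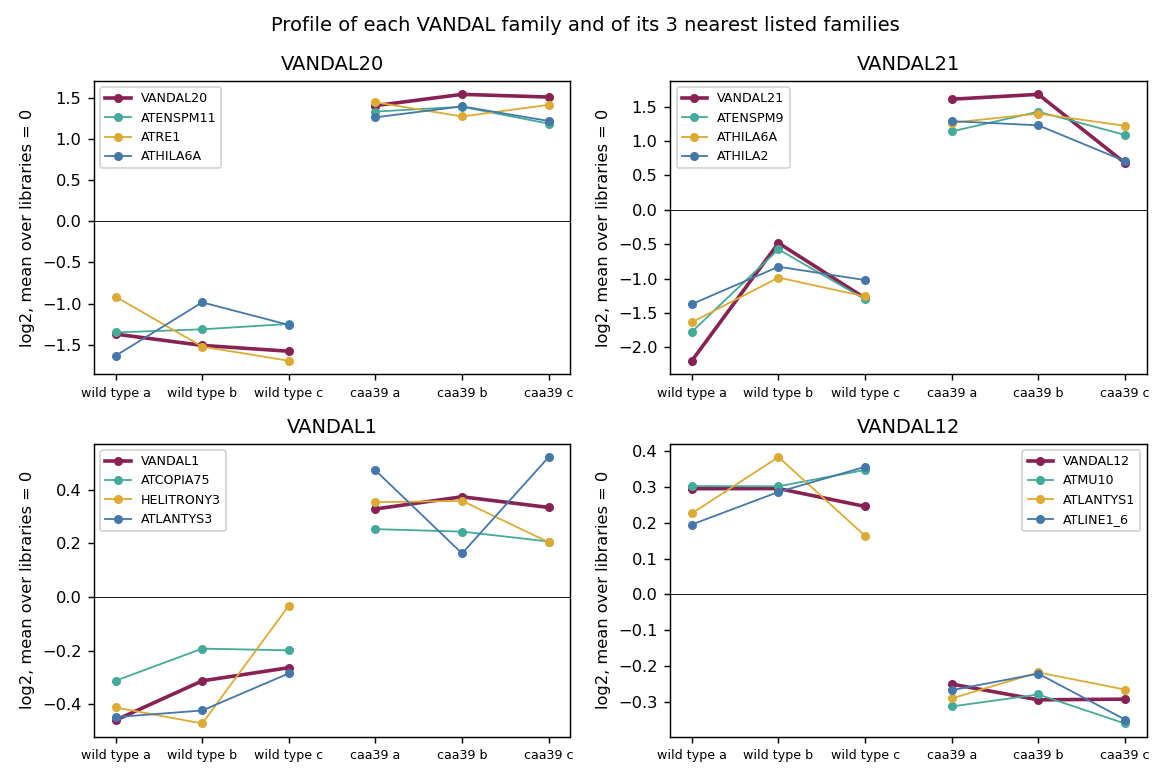
Log2 normalised reads (with 0.5 added) of each VANDAL family and its 3 nearest listed families in the 6 solved libraries, each family centred on its mean over the libraries. The 3 families nearest to VANDAL12 stay within 0.06 to 0.07 of it on average, while those nearest to VANDAL21 differ by 0.33 to 0.44.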

How the data were processed

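Stranded mRNA libraries were made from total RNA, per the labels' protocols. Tools listed in the submitters' processing notes, with no role given, are edgeR 1.12.0, FastQC 0.10.1 and Bowtie2, and the build is TAIR10. How reads were assigned to families, and how reads matching several copies or related families were treated, is not stated there. Per the file headers, the deposited signal is a mean over the libraries of a genotype, made by the authors, of normalised read counts. The deposited ratio (fold) is caa39 over wild type, the deposited log2 value is its logarithm, and the authors' p-value is given raw and adjusted. The largest adjusted p is 0.0499. The entry of unassigned elements held 28.3% of listed reads and stayed out of the tests. The total depth of the libraries is unknown, and family lengths were not used, so reads of different families are not compared as levels of expression per length.

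Whole reads were solved from the means (relative tolerance 2e-14 plus 3e-13 absolute; size factors searched from 0.5 to 2). Every mean had 1 solution under the sets taken. For the wild type 10 sets of size factors were possible. The set taken had the smallest median coefficient of variation (13.0%, against 19.2% for the second), and its 6 size factors, caa39 included, had a geometric mean of 1.00, against 1.27. For caa39 1 set was found. Taking the set with the smallest spread can understate SDs. In 4 families outside MuDR a wild-type mean listed as 1 was taken as 0, as the overall mean gives. The solver and limma were also run on simulated data, and the outcome is not given here.

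Tests used limma 3.58.1 (R 4.3.3) on log2(normalised reads + 0.5), with Benjamini-Hochberg adjustment over the 83 named families. Exact tests and intervals used Python 3.11.15 with scipy 1.17.1. Named were the VANDAL and other MuDR families, the 3 listed families nearest in profile to each VANDAL family, and the family next above and below each in mean reads. Members, lists and tests were chosen with earlier results of these data known. The chromatin and bisulfite libraries of the series were not analysed here. Per the series design, RNA replicates are biological.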

Additional observations from a re-analysis of the deposited data

How the results depend on the processing

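Of 141 alternative values, 133 kept their direction and call, or for a count or a value with no test stayed near the main value. This total overstates how stable the results are. The smallest exact permutation p that 3 against 3 libraries allow is 0.1, so no difference between families could be called at any setting. Such a difference was counted as kept whenever its sign held, as for VANDAL20 minus VANDAL21 at 1.35 (pseudocount of 5) against 0.33. A count that went from 3 to 2 was also taken as near. With Bonferroni adjustment over the implied tests 1 VANDAL family stayed higher (VANDAL20) in place of 3, and with a 2-fold minimum 0 stayed lower, since VANDAL12 stands at 0.679. Under the median of ratios VANDAL12 lost its limma call (−0.14, adjusted p = 0.238, range over its alternatives 0.000729 to 0.238). That scale raised limma log2 fold changes by a median of 0.41 over the 83 families, and why the scales differ was not tested. The log2 ratio of the VANDAL sum was 0.91, 1.22 scaled to listed reads, 1.33 under the median of ratios and −0.34 without VANDAL20, which carries the rise. With a library left out, the difference between VANDAL20 and VANDAL21 ran from −0.10 to 0.83, against 0.33, and it was 0.12 with a pseudocount of 0.1 and 1.35 with 5. Other pseudocounts (0.1, 1 and 5) changed no limma call of the 4 families, but a pseudocount of 5 moved the log2 fold change of VANDAL21 from 2.64 to 1.57, VANDAL21 minus VANDAL1 from 1.95 to 0.92 and VANDAL21 minus VANDAL12 from 3.20 to 2.13. The second set of wild-type size factors, chosen as an alternative after seeing the data, gave larger wild-type SDs. These were 16.2 for VANDAL20, 83.6 for VANDAL12 and 2.34 for VANDAL21, in normalised reads. All 4 limma calls held with that set, with limma adjusted p-values up to 0.0267. Shares of reads, pooled ratios and differences between families were not recomputed with it.

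No paired analysis was possible because only means of a genotype were deposited, and no replicate number can be given to a solved library. VANDAL21, with 7 wild-type reads, is limited by counting error.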

Other observations

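In mean normalised reads over all libraries VANDAL20 stood next below ATLINE1_6, a LINE family at 0.678 of its wild-type level in the authors' deposited table, and next above ATSINE2A, at 0.784. VANDAL12 stood between ATSINE2A and ATENSPM11, the latter 6.13-fold higher in caa39 in the authors' deposited table. VANDAL1 stood between ATHATN3, 3.32-fold higher, and HELITRONY3, 1.52-fold higher in the authors' deposited table. VANDAL21 stood between ATDNA12T3A and ATCOPIA70. These orders are of summed reads, not of reads per length.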
